A study of Mus musculus with 6 samples.

Results

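The genes described here are 37 coagulation and complement genes whose proteins the liver makes and releases into plasma. They were taken by gene symbol from a list of plasma cascade genes, and no measured value is part of that rule. The list was chosen with earlier results of these data known, so comparing its share of calls with all genes is a description. All 37 were found among the 17975 genes of the deposited table, and all 37 were among the 13805 genes that passed the filter on low counts and were tested. RNA was sequenced from whole liver of 3 WT mice and 3 Hom mice, to ask how loss of Nek7 from hepatocytes changed liver gene expression. The Hom mice were NEK7 fl/fl and carried Alb-Cre, a transgene in which the albumin promoter drives Cre recombinase in hepatocytes. Other liver cells were not the target, and whole-liver RNA contains RNA of both. The labels call the controls WT and do not say whether they carried the floxed allele or Cre. The floxed and Cre strains were on a C57BL/6 background, and the labels do not give the age or sex of these 6 mice. The study's knockout experiments used mice of both sexes.

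The 6 libraries held between 19349418 and 19730236 estimated counts. Nek7, the targeted gene, had 1127, 1077 and 1036 estimated counts in the WT livers and 310, 439 and 387 in the Hom livers. Every Hom liver was below every WT liver, at 25.2% of the WT mean after scaling. Hom replicate 1 had no counts for the Y-linked genes Ddx3y and Kdm5d, and had 4 for Eif2s3y and 149 for Uty. The other 5 livers had at least 630, 243, 582 and 464 counts for these 4 genes. Results are therefore also given without that liver where it changed a direction or a call. The tissue label was checked against 34 hepatocyte marker genes, all of which were detected. Their summed level ran from 170800 to 228700 TPM (transcripts per 1000000) in the WT group and from 155200 to 173100 in the Hom group.

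Blood clotting is a cascade of proteases that circulate as inactive precursors. Each protease activates the next until thrombin cuts fibrinogen into fibrin, while antithrombin and the protein C system restrain the cascade and plasmin dissolves the clot. Complement is a second protease cascade, started by antibody, by sugars on microbes (the lectin pathway) or by spontaneous turnover of C3. It ends in a pore built from C5b, C6, C7, C8 and C9. Hepatocytes make most of these proteins, and several of them, among them fibrinogen and C3, are classical acute phase proteins whose synthesis rises in inflammation.

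With TMM factors, which scale each library so that most genes show no difference, 16 of the 37 genes fell in Hom livers, 2 rose (Pros1 and C3) and 19 did not pass an adjusted p of 0.05 (edgeR's quasi-likelihood test, Benjamini-Hochberg adjustment over all tested genes). Those counts are 43.2% and 5.41% of the members. Among all 13805 genes 20.1% fell and 21.5% rose, so the share of members that fell was above the background and the share that rose was below it. The median log2 fold change of the members was −0.32, against −0.00 for all tested genes, and −0.43 without Hom replicate 1. The count lower was 9 without WT replicate 2 or WT replicate 3, 8 without Hom replicate 2, 7 without Hom replicate 3, 13 without WT replicate 1 and 18 without Hom replicate 1. In the fits without WT replicate 2, WT replicate 3, Hom replicate 2 and Hom replicate 3 this was 24.3%, 24.3%, 21.6% and 18.9% of the members, and 13.8%, 15.7%, 13.1% and 12.6% of all tested genes were lower. Without WT replicate 1 and Hom replicate 1 the share lower was 35.1% and 48.6% of the members, against 19.4% and 18.1% of all tested genes. The count higher was 1 without WT replicate 2, WT replicate 3 or Hom replicate 3. That was 2.7% of the members, against 14.5%, 17.2% and 14.2% of all tested genes. F10, Klkb1, Proc, Mbl1, Masp2, C8b and C8g passed as lower and Pros1 as higher in each of these 6 fits. In CPM (counts per 1000000 after TMM scaling), 19 members had every Hom liver below every WT liver and 4 had every Hom liver above, where 27% and 28.7% of all tested genes did so. Past a log2 fold change of 1 in size there were 2 members lower (C8b and C8g) and 1 higher (Pros1), or 5.41% and 2.7% of the members, where 4.17% and 13.2% of all tested genes passed.

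The choice of scaling set the sign of many of these differences. Albumin mRNA took 8.05% to 11.4% of the counts in the WT group and 4.88% to 6.06% in the Hom group. The 37 members together took 3.76% to 4.94% in the WT group and 5.34% to 7.39% in the Hom group. With library size alone the median of all genes lay at 0.45 and that of the members at 0.13. With libraries scaled on the 34 hepatocyte markers the medians were 0.77 and 0.45, and in deposited TPM they were 0.62 and 0.30. The members' median was therefore 0.32 below that of all genes on each of these 4 scales. A change of scale shifts all genes by nearly the same amount, so this gap stays nearly the same by construction. Counts of calls moved accordingly. With library size alone 4 members passed as lower and 8 as higher, against a background of 4.65% lower and 47.6% higher. On the hepatocyte marker scale 1 passed as lower and 19 as higher, against 2.14% and 68.9%. In deposited TPM, 3 members had all Hom livers below all WT livers and 15 had them above, against 4.06% and 65.2% of all tested genes. C8g passed as lower, and Pros1 and C3 as higher, with TMM factors, upper-quartile factors, library size alone and the hepatocyte marker scale. Proc, Masp2 and C8b passed as lower with TMM factors and with library size alone. F12 passed as lower with TMM factors and as higher on the hepatocyte marker scale.

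In what follows, values per liver are TMM-scaled CPM, fold changes are from the TMM fit, and "fell" or "rose" means past the threshold in that fit. Levels of different genes are compared only in TPM, which is per transcript length. In whole-liver RNA, fewer hepatocytes and less RNA per hepatocyte cannot be told apart.

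**Figure D1:**
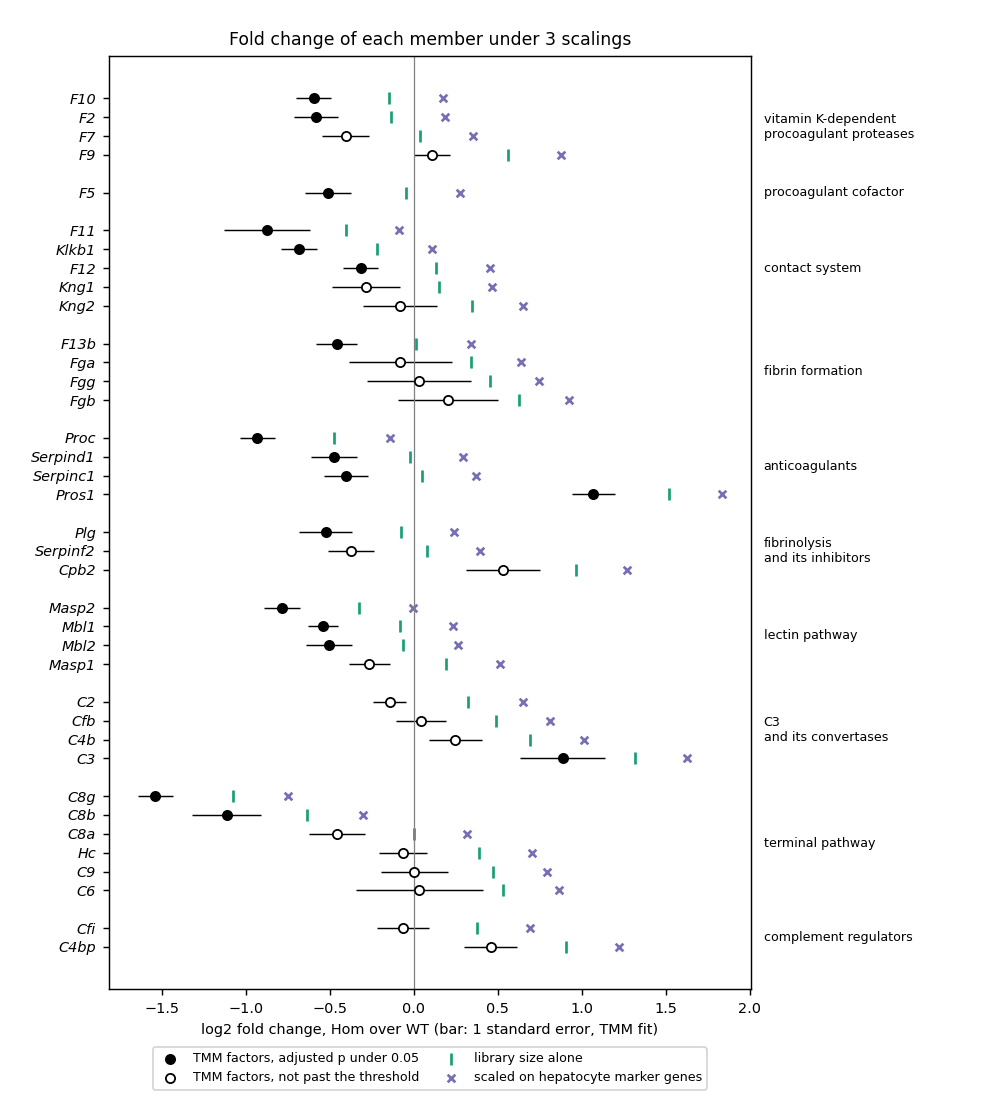
Log2 fold change of each of the 37 genes, Hom over WT, grouped by role (horizontal axis in log2 units, vertical line at 0). Circles with bars are the TMM fit with 1 standard error, filled where the adjusted p was under 0.05, green ticks are library size alone and purple crosses the hepatocyte marker scale. The scalings shift all members by similar amounts, and 26 of 37 TMM values, 13 library size values and 5 hepatocyte marker values lie below 0.

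Of the 4 vitamin K-dependent procoagulant proteases, F2 and F10 fell and F7 and F9 did not pass the test. F10, the protease that converts prothrombin to thrombin, stood at 526, 515 and 476 CPM in WT livers and at 355, 320 and 328 in Hom livers. The groups did not overlap, and the log2 fold change was −0.60 ± 0.104 (SE, n = 3 and 3), with an adjusted p of 0.00504 by edgeR's quasi-likelihood test. F2, prothrombin itself, had a log2 fold change of −0.58 ± 0.13 and an adjusted p of 0.0121 in the same edgeR test. On the hepatocyte marker scale both values were above 0, at 0.18 for F10 and 0.19 for F2. With TMM factors F2 lost the call without Hom replicate 3.

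F9, the protease missing in haemophilia B, stood at 191, 213 and 186 CPM in WT livers and at 235, 197 and 203 in Hom livers. The groups overlapped, and the log2 fold change was 0.11 with a 95% interval from −0.15 to 0.36. F7, which starts the cascade together with tissue factor, stood at 78.1, 82.7 and 71.1 CPM in WT livers and at 70.7, 51.0 and 53.5 in Hom livers. Its Hom values all lay below the WT values, by a small margin in Hom replicate 1. The log2 fold change of F7 was −0.41 ± 0.138 and its adjusted p of 0.0514 in edgeR's quasi-likelihood test just missed the threshold. Without Hom replicate 1 that adjusted p was 0.00724. F7 and F10 lie head to tail on chromosome 8, 1498 bases apart in GRCm38, and the ratio of F7 to F10 overlapped between the groups. In TPM, prothrombin mRNA was the most abundant of the 4 in both groups, at 1280 ± 172 (SD, n = 3) in WT livers, followed by F10 at 297 ± 45.7, F9 at 106 ± 11.5 and F7 at 61.8 ± 8.64.

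F5 encodes factor V, the cofactor that prothrombin cleavage needs. It fell, from 601, 785 and 669 CPM in WT livers to 472, 454 and 514 in Hom livers, and the groups did not overlap. F5 had a log2 fold change of −0.51 ± 0.137, with an adjusted p of 0.0235 in edgeR's quasi-likelihood test. It lost the call when WT replicate 2, WT replicate 3, Hom replicate 2 or Hom replicate 3 was left out, with adjusted p from 0.0559 to 0.0836 in the same edgeR test, and with library size alone its log2 fold change was −0.05.

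The contact system starts clotting on surfaces and releases bradykinin from kininogen. Of its 5 genes, F11, F12 and Klkb1 fell and the kininogens Kng1 and Kng2 did not pass the test. F11, the protease that activates factor IX, stood at 48.5, 101 and 77.6 CPM in WT livers and at 47.8, 36.0 and 40.2 in Hom livers. WT replicate 1 lay just above Hom replicate 1, so the groups were separated by a narrow margin. The log2 fold change was −0.87 ± 0.257 with an adjusted p of 0.0322 in edgeR's quasi-likelihood test, and −0.61 with an adjusted p of 0.0891 without WT replicate 2. F11 also lost the call without WT replicate 3, Hom replicate 2 or Hom replicate 3. Klkb1, the gene of prekallikrein, fell by 0.69 on the log2 scale (SE 0.107, adjusted p of 0.00328 in the same edgeR test), and passed with each liver left out in turn. F12, whose product is activated in turn by the active form of prekallikrein, fell by 0.32 (SE 0.106, adjusted p of 0.0488 in the same edgeR test). But F12 stood at 0.13 with library size alone and at 0.45 on the hepatocyte marker scale, where its adjusted p was 0.0365 in edgeR. With TMM factors it passed without Hom replicate 1 but not without any other single liver.

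Kng1 was the most abundant contact system mRNA, at 2340 ± 561 TPM in WT livers and 2910 ± 415 in Hom livers. It stood at 3092, 2695 and 2365 CPM in WT livers and at 2789, 1928 and 1973 in Hom livers, with overlap at Hom replicate 1. Kng2, its neighbour and near copy, stood at 339, 255 and 236 CPM in WT livers and at 341, 209 and 234 in Hom livers. Hom replicate 1 was as high as the highest WT liver for Kng2, and the log2 fold change was −0.08 with a 95% interval from −0.60 to 0.44. For Kng1 it was −0.28, with an interval from −0.77 to 0.20. Of the 50-base stretches of each transcript, 18% of Kng1 and 18.2% of Kng2 also occur in the other, so the estimated counts could have split reads between them. Klkb1 shares 42.7% of its stretches with the gene model Gm45753 in the reference annotation.

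**Figure D2:**
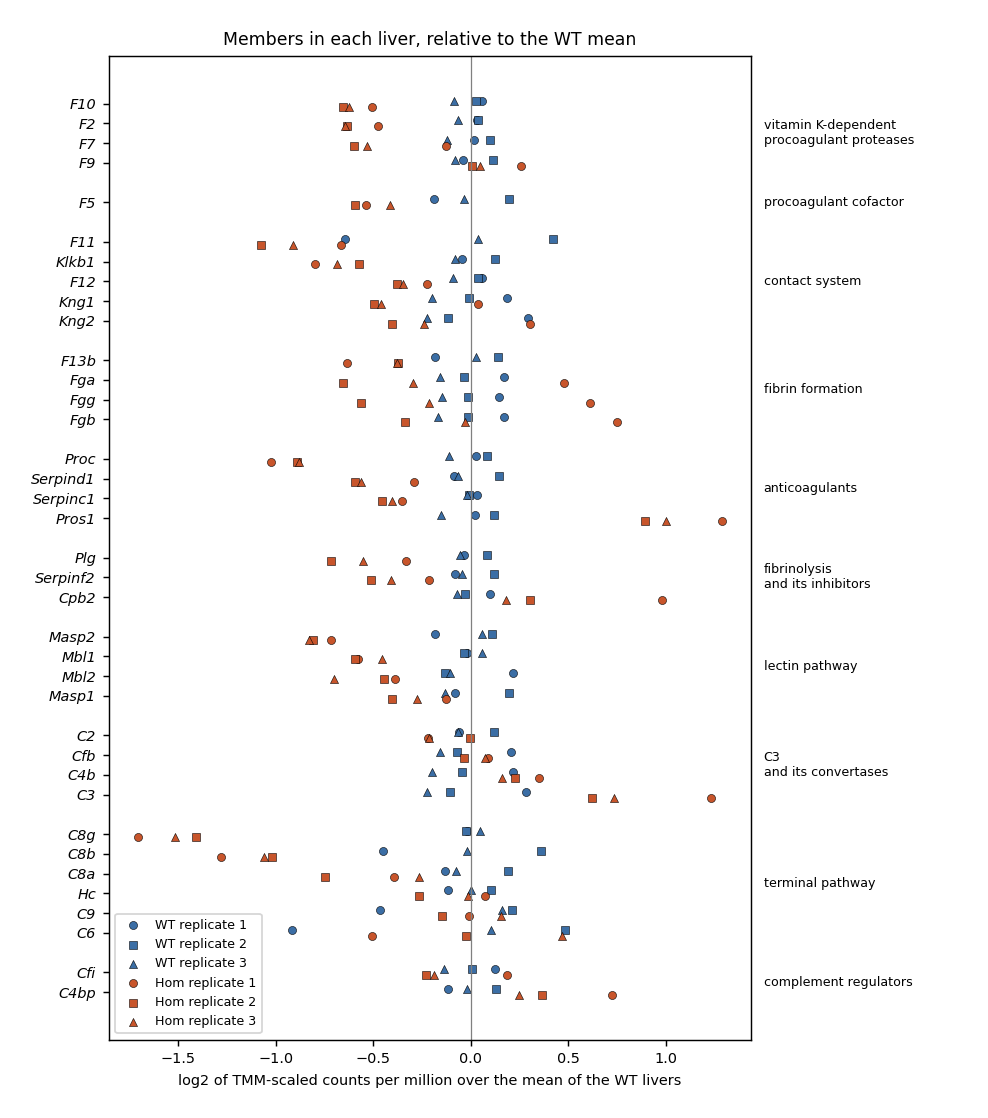
Each of the 37 genes in each liver, as the log2 of TMM-scaled CPM over the mean of the 3 WT livers (horizontal axis, WT in blue and Hom in red, one symbol shape per replicate number). Most Hom symbols lie left of 0, C8g lies farthest left and Pros1 and C3 farthest right, and Hom replicate 1 lies to the right of the other Hom livers for the 3 fibrinogen genes and Cpb2.

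Fibrinogen is built from 3 chains, encoded by Fga, Fgb and Fgg next to each other on chromosome 3. None of the 3 genes passed the test, and all 3 moved together from liver to liver. Fgb, the beta chain, stood at 5899, 5184 and 4660 CPM in WT livers and at 8817, 4156 and 5145 in Hom livers. Fga, the alpha chain, stood at 8514, 7388 and 6782 CPM in WT livers and at 10520, 4791 and 6151 in Hom livers. Fgg, the gamma chain, stood at 4811, 4304 and 3929 CPM in WT livers and at 6634, 2943 and 3751 in Hom livers. For each chain Hom replicate 1 was above every WT liver and Hom replicate 2 below every WT liver. The log2 fold changes were 0.20 ± 0.299 for Fgb, −0.08 ± 0.309 for Fga and 0.03 ± 0.310 for Fgg. Without Hom replicate 1 all 3 were below 0, at −0.17, −0.47 and −0.38, and on the hepatocyte marker scale all 3 passed as higher, at 0.92, 0.64 and 0.75.

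The ratios of Fga and Fgg to Fgb did not overlap between the groups. Among all 666 pairs of members 51.8% did not overlap either. The ratio of Fga to Fgb was taken within each liver from counts per gene length, where the scaling between libraries cancels. Its log2 was −0.28, −0.30 and −0.27 in WT livers and −0.55, −0.60 and −0.55 in Hom livers. The groups did not overlap and the spread within each was small, with Fga at 0.823 of Fgb in WT livers and 0.674 in Hom livers. For Fgg to Fgb the log2 ratio was −0.31, −0.28 and −0.26 in WT livers and −0.42, −0.51 and −0.47 in Hom livers, or 0.823 against 0.723, without overlap. For each ratio the exact two-sided permutation p was 0.1, the smallest that 3 livers against 3 allow, and 0.167 after Benjamini-Hochberg adjustment over the 20 ratios examined. F13b, the carrier subunit of the enzyme that cross-links fibrin, fell by 0.46 on the log2 scale (SE 0.122, adjusted p of 0.0228 in edgeR's quasi-likelihood test), from 162, 203 and 188 CPM in WT livers to 118, 142 and 142 in Hom livers. The value for F13b was 0.0104 with library size alone. F13b lost the call without WT replicate 2, WT replicate 3, Hom replicate 2 or Hom replicate 3.

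The promoters of the 3 fibrinogen genes are shown because these neighbours varied together across livers while their ratios separated the groups. Each runs 5′ to 3′ from 250 bases before to 50 bases after the RefSeq start on GRCm38.p6. Capitals mark letters that match a C/EBP site (TTGCNNAA), a STAT site (TTCNNNGAA), the interleukin-6 response element (CTGGGAA) or an HNF1 half-site (GTTAAT), searched on both strands. The windows are chr3:83025903-83026202 on the plus strand for Fga, chr3:83049814-83050113 on the minus strand for Fgb and chr3:83007474-83007773 on the plus strand for Fgg.
Fga: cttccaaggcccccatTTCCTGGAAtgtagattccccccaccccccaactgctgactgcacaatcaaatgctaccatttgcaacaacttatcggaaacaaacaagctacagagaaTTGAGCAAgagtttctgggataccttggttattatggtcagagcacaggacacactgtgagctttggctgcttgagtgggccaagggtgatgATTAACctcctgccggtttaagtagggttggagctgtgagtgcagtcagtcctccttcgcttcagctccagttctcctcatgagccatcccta
Fgb: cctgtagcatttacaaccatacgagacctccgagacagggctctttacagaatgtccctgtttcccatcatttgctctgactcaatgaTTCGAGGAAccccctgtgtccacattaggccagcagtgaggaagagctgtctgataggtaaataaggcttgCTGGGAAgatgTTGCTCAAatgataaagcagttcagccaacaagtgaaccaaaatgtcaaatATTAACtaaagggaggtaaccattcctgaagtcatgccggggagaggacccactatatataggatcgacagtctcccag
Fgg: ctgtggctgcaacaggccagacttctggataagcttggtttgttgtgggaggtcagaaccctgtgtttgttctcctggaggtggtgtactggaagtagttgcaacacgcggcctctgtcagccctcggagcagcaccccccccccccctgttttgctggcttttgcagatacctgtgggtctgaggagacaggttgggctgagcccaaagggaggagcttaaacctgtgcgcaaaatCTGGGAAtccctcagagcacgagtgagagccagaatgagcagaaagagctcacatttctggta
Fga and Fgb each held an HNF1 half-site, 43 and 29 bases before the start, a C/EBP match and a STAT match. Fgb also held the interleukin-6 response element, 91 bases before the start, and Fgg held that element alone, 13 bases before its start. Across all 32851 mouse windows of this length, 7.1% held the HNF1 half-site, 10.8% the C/EBP letters, 8.3% the STAT letters and 11.1% the interleukin-6 element. Among the 29 members with a window in the table, 8 held the HNF1 half-site (27.6%), 10 the C/EBP letters (34.5%), 6 the STAT letters and 6 the interleukin-6 element (20.7% each). An HNF4 site (CAAAGTCCA) was in none of the 29 and in 0.475% of all windows, and a TATA box (TATAAA) in 3 of the 29 and in 13.6% of all. A match describes letters only and is no evidence of binding.

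The 4 anticoagulant genes all passed the test, 3 of them lower and 1 higher. Proc encodes protein C, the vitamin K-dependent protease that inactivates factors V and VIII. It stood at 483, 502 and 440 CPM in WT livers and at 233, 256 and 257 in Hom livers. Every Hom liver was well below every WT liver, at 52.4% of the WT mean, with a log2 fold change of −0.93 ± 0.105 and an adjusted p of 0.00112 in edgeR's quasi-likelihood test. For Proc the value was −0.47 with library size alone, with an adjusted p of 0.0231 in edgeR, and on the hepatocyte marker scale −0.14, which did not pass.

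Pros1 encodes protein S, the cofactor that protein C works with. It stood at 51.8, 55.3 and 45.9 CPM in WT livers and at 124, 94.7 and 102 in Hom livers, so the lowest Hom liver lay above the highest WT liver. The log2 fold change was 1.07 ± 0.126, a rise to 210% of the WT mean, with an adjusted p of 0.00127 in edgeR's quasi-likelihood test. It passed with each liver left out in turn, from 0.95 without Hom replicate 1 to 1.15 without Hom replicate 2. In TPM, Pros1 was the least abundant of the 37 genes in WT livers, at 23.4 ± 3.69, and ranked 34 in Hom livers, at 74.5 ± 4.87. Within each liver the log2 ratio of Pros1 to Proc was −4.25, −4.21 and −4.29 in WT livers and −1.94, −2.46 and −2.37 in Hom livers. The groups were far apart, a 3.99-fold difference that does not depend on the scaling between libraries (exact two-sided permutation p of 0.1, 0.167 adjusted over 20 ratios).

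The promoter of Pros1, the member with the largest rise, is shown with the same capitals. It covers chr16:62854057-62854356 on the plus strand of GRCm38.p6 in RefSeq.
Pros1: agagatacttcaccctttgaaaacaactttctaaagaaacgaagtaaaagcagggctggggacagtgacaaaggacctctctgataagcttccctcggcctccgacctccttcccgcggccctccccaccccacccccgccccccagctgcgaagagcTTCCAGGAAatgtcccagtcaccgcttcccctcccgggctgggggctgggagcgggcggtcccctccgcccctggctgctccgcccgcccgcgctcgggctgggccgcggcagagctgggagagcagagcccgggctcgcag
The only capitals are a STAT match 92 bases before the start.

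Serpinc1, the gene of antithrombin, was the most abundant anticoagulant mRNA, at 2130 ± 284 TPM in WT livers and 2460 ± 98.4 in Hom livers. In TMM-scaled CPM it stood at 2435, 2366 and 2351 in WT livers and at 1863, 1740 and 1798 in Hom livers. The groups did not overlap and the livers within each were close. Serpinc1 fell by 0.41 on the log2 scale (SE 0.131, adjusted p of 0.0434 in edgeR's quasi-likelihood test), but the value was 0.0469 with library size alone. Serpinc1 passed without Hom replicate 1 but not without any other single liver. The ratio of Serpinc1 to F2, its main target, was slightly higher in every Hom liver, 1.67 in WT livers against 1.89 in Hom livers (exact two-sided permutation p of 0.1, 0.167 adjusted). Serpind1, the gene of heparin cofactor II, fell by 0.48 (SE 0.136, adjusted p of 0.029 in the same edgeR test) and stood at −0.02 with library size alone. It lost the call without WT replicate 2, WT replicate 3, Hom replicate 2 or Hom replicate 3.

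Of the 3 genes of fibrinolysis, Plg fell and its inhibitors did not pass the test. Plg encodes plasminogen, the precursor of plasmin. It stood at 2650, 2876 and 2613 CPM in WT livers and at 2157, 1648 and 1849 in Hom livers, without overlap. Plg had a log2 fold change of −0.53 ± 0.159 with an adjusted p of 0.0357 in edgeR's quasi-likelihood test, and it passed without Hom replicate 1 but not without any other single liver. Its value was −0.08 with library size alone.

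Cpb2 encodes a carboxypeptidase that trims fibrin and so slows plasmin. It stood at 415, 380 and 370 CPM in WT livers and at 767, 479 and 440 in Hom livers. Every Hom liver was above every WT liver, with Hom replicate 1 far above the others. Its log2 fold change was 0.53 ± 0.219 with an adjusted p of 0.0901 in edgeR's quasi-likelihood test, and it was 0.24 without Hom replicate 1. Cpb2 passed with library size alone, at 0.97 and an adjusted p of 0.00699 in edgeR. Serpinf2, the gene of the main plasmin inhibitor, stood at 978, 1123 and 1004 CPM in WT livers and at 891, 725 and 779 in Hom livers, again without overlap. Its log2 fold change was −0.38 ± 0.138 with an adjusted p of 0.0646 in the same edgeR test, and −0.46 with an adjusted p of 0.0343, past the threshold, without Hom replicate 1. The ratio of Cpb2 to Plg within a liver was 0.271 in WT livers and 0.551 in Hom livers, a 2.03-fold difference, and that of Serpinf2 to Plg was 0.481 and 0.536. Neither ratio overlapped between groups (exact two-sided permutation p of 0.1 each, 0.167 adjusted).

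The lectin pathway begins when mannose-binding lectins, encoded by Mbl1 and Mbl2, dock on sugars and activate the proteases Masp1 and Masp2. Of these 4 genes, Mbl1, Mbl2 and Masp2 fell and Masp1 did not pass the test. Masp2, whose product cleaves C4 and C2, stood at 221, 271 and 261 CPM in WT livers and at 153, 143 and 141 in Hom livers. The groups were well apart, and the log2 fold change was −0.79 ± 0.107 with an adjusted p of 0.00204 in edgeR's quasi-likelihood test. Masp2 still passed with library size alone, at −0.33 and an adjusted p of 0.023 in edgeR, and on the hepatocyte marker scale it stood at −0.00. Masp1, whose product activates Masp2, stood at 117, 142 and 113 CPM in WT livers and at 114, 93.5 and 103 in Hom livers, with overlap. The ratio of Masp1 to Masp2 within a liver was 0.204 in WT livers and 0.292 in Hom livers, without overlap (exact two-sided permutation p of 0.1, 0.167 adjusted). Mbl1 fell by 0.54 (SE 0.0875, adjusted p of 0.00378) and Mbl2 by 0.51 (SE 0.137, adjusted p of 0.0243) in the same edgeR test, and both were above 0 on the hepatocyte marker scale, at 0.24 and 0.26. The ratio of Mbl1 to Mbl2 overlapped, with a difference of −0.04 in log2.

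C3 is the centre of the complement cascade, cleaved by convertases made of C4b with C2 or of C3b with factor B. Of these 4 genes C3 rose and C2, C4b and Cfb did not pass the test. C3 stood at 11000, 8401 and 7722 CPM in WT livers and at 21220, 13880 and 15030 in Hom livers. Every Hom liver was above every WT liver, and within each group replicate 1 was the highest. C3 had a log2 fold change of 0.89 ± 0.253, a rise to 185% of the WT mean, with an adjusted p of 0.0293 in edgeR's quasi-likelihood test. It lost the call without WT replicate 2 (0.83, adjusted p of 0.0998), WT replicate 3 (0.78, 0.0967) or Hom replicate 3 (0.96, 0.0707), and kept it without Hom replicate 1 (0.68, 0.0432), all in edgeR. In TPM, C3 ranked 4 among the members in WT livers, behind the 3 fibrinogen genes, and 1 in Hom livers, at 9080 ± 1500 against 3340 ± 1230.

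Cfb, the gene of factor B, stood at 1453, 1196 and 1127 CPM in WT livers and at 1336, 1230 and 1323 in Hom livers. The groups overlapped, with a log2 fold change of 0.04 and a 95% interval from −0.31 to 0.39. The ratio of Cfb to C3 was 0.220 in WT livers and 0.124 in Hom livers, without overlap (exact two-sided permutation p of 0.1, 0.167 adjusted). C4b stood at 1676, 1397 and 1258 CPM in WT livers and at 1838, 1689 and 1611 in Hom livers. Its groups overlapped at WT replicate 1, and the log2 fold change was 0.25 ± 0.158, with an adjusted p of 0.247 in edgeR's quasi-likelihood test and of 0.0165 with library size alone, where the value was 0.69. C2 stood at 113, 128 and 112 CPM in WT livers and at 101, 117 and 101 in Hom livers, with overlap and a log2 fold change of −0.14 ± 0.0983.

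These 3 genes lie together on chromosome 17 and share sequence with other genes of that region. Of the 50-base stretches of C4b, 35.2% also occur in C4a, its near copy. C4a had a mean of 32.1 ± 27.2 CPM in WT livers and 5.30 ± 1.09 in Hom livers, far below C4b, with overlapping groups. C2 shares 58.0% and Cfb 81.4% of their stretches with the gene model Gm20547, and the 2 genes are 85 bases apart in GRCm38. Their estimated counts are uncertain to that extent.

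Shown is the promoter of C3, which had the highest mean TPM of the 37 genes in Hom livers (below Fgb in Hom replicate 1). It covers chr17:57228087-57228386 on the minus strand of GRCm38.p6 in RefSeq.
C3: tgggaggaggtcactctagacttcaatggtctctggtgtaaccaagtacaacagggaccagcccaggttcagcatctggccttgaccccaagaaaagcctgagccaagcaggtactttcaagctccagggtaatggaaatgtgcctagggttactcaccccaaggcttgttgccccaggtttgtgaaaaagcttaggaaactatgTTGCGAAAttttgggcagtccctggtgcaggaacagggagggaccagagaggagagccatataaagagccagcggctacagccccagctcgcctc
The capitals are a C/EBP match 45 bases before the start.

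The terminal pathway gave the largest falls. C8 is made of 3 chains from 3 genes, and C8g and C8b fell whereas C8a, like Hc, C6 and C9, did not pass the test. C8g, the gamma chain, stood at 266, 264 and 278 CPM in WT livers and at 82.4, 101 and 94.0 in Hom livers. The 3 WT livers were close to each other and every Hom liver was far below them, at 34.4% of the WT mean. The log2 fold change of C8g was −1.54 ± 0.104, with an adjusted p of 0.000265 in edgeR's quasi-likelihood test. It passed as lower in every alternative fit that was run, from −0.75 on the hepatocyte marker scale to −1.61 without Hom replicate 2. In TPM, C8g went from rank 14 of the 37 members in WT livers to rank 27 in Hom livers.

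C8b, the beta chain, stood at 284, 498 and 383 CPM in WT livers and at 160, 192 and 186 in Hom livers. The WT livers varied more than for C8g, and no Hom liver reached the lowest of them. C8b had a log2 fold change of −1.12 ± 0.206 with an adjusted p of 0.00618 in edgeR's quasi-likelihood test, and −0.64 with an adjusted p of 0.0261 with library size alone. C8a, the alpha chain, lies 11130 bases from C8b in GRCm38 and stood at 698, 874 and 728 CPM in WT livers and at 583, 457 and 637 in Hom livers. Its groups did not overlap, yet its log2 fold change of −0.46 ± 0.167 had an adjusted p of 0.0648 in the same edgeR test, and it was 0.0017 with library size alone. The ratio of C8a to C8b overlapped between groups, at 1.29 and 1.98. The log2 ratio of C8g to C8b was 1.08, 0.26 and 0.72 in WT livers and 0.22, 0.26 and 0.19 in Hom livers. Those groups were separated by less than 0.01 between WT replicate 2 and Hom replicate 2 (exact two-sided permutation p of 0.1, 0.167 adjusted).

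The promoter of C8g, the member with the largest fall, covers chr2:25501670-25501969 on the minus strand of GRCm38.p6 in RefSeq.
C8g: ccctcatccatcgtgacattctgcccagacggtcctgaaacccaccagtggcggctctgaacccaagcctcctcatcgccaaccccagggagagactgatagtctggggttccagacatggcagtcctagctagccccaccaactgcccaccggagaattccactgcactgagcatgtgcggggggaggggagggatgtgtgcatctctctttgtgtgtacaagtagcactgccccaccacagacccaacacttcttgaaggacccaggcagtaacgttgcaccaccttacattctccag
None of the 4 motifs was found in this window.

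For the other terminal genes the groups overlapped. Hc, the gene of C5, stood at 937, 1092 and 1017 CPM in WT livers and at 1066, 844 and 1005 in Hom livers. C9, which forms the wall of the pore, stood at 386, 617 and 595 CPM in WT livers and at 529, 480 and 593 in Hom livers. C6 stood at 142, 374 and 287 CPM in WT livers and at 188, 262 and 369 in Hom livers. C6 varied most, with a 95% interval of its log2 fold change from −0.86 to 0.93. For C9 the interval ran from −0.47 to 0.47 and for Hc from −0.40 to 0.28. Hc passed as higher with library size alone, at 0.39 and an adjusted p of 0.0351 in edgeR's quasi-likelihood test.

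Both complement regulators missed the threshold. C4bp, which binds C4b and hastens its decay, stood at 434, 515 and 466 CPM in WT livers and at 777, 606 and 559 in Hom livers. Every Hom liver was above every WT liver, and the log2 fold change was 0.46 ± 0.157 with an adjusted p of 0.0531 in edgeR's quasi-likelihood test. Its value with library size alone was 0.91, with an adjusted p of 0.00182 in edgeR, and DESeq2 called it higher at an adjusted p of 0.00938. Cfi, the protease that cuts C3b and C4b, stood at 725, 669 and 606 CPM in WT livers and at 759, 569 and 585 in Hom livers, with overlap and a log2 fold change of −0.07 ± 0.155. The ratio of Cfi to C3 was 0.149 in WT livers and 0.077 in Hom livers, without overlap (exact two-sided permutation p of 0.1, 0.167 adjusted).

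**Figure D3:**
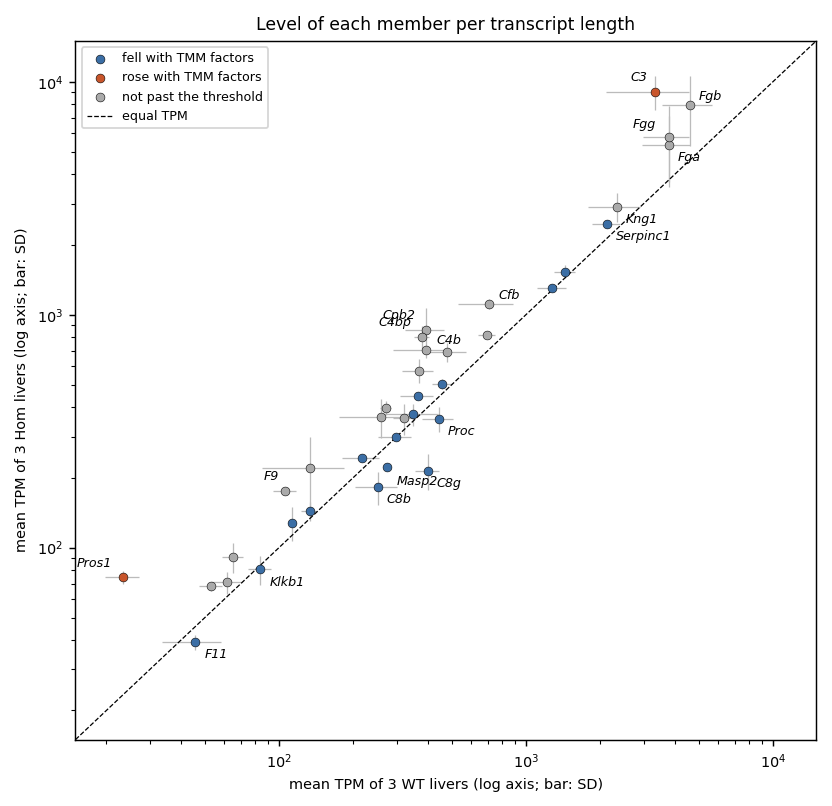
Mean TPM of each of the 37 genes in 3 WT livers (horizontal axis) against 3 Hom livers (vertical axis), both on log scales, with bars of 1 SD and a dashed line of equal TPM. Points are blue where the gene fell, red where it rose and grey where it did not pass with TMM factors. C3 and the fibrinogen genes are at the top, Pros1 lies farthest above the line, and C8g, C8b, Masp2, Proc, F11 and Klkb1 lie below it.

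Read as levels, the members' mRNA was dominated by few genes. The 3 fibrinogen genes summed to 15260, 11090 and 10190 TPM in WT livers and to 26330, 13890 and 16930 in Hom livers. C3 gave 4752, 2708 and 2546 TPM in WT livers and 10810, 8243 and 8178 in Hom livers. The other 33 members together gave 17640, 14700 and 13650 TPM in WT livers and 19440, 18490 and 18600 in Hom livers. In every WT liver C3 held less than the other 33 genes by a wide margin, and the gap was smaller in every Hom liver. On this scale the median of all tested genes shifts upwards in Hom livers, as given above, so these sums describe the make-up of each library and not a rise.

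Of the 20 ratios between partner genes, 12 did not overlap between the groups (60%), where 51.8% of all 666 pairs of members did not overlap. The share among partners was near that among all members. Besides those given above, the ratio of F11 to F9 was 0.423 in WT livers and 0.223 in Hom livers and that of Proc to F10 was 1.5 and 1.19, each with an exact two-sided permutation p of 0.1 and 0.167 adjusted. The ratios that overlapped were F7 to F10, F13b to Fgb, C8a to C8b, C9 to Hc, Kng2 to Kng1, Klkb1 to Kng1, Mbl1 to Mbl2 and C4b to C2. No ratio could pass a threshold of 0.05 by this exact test with 3 livers against 3.

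**Figure D4:**
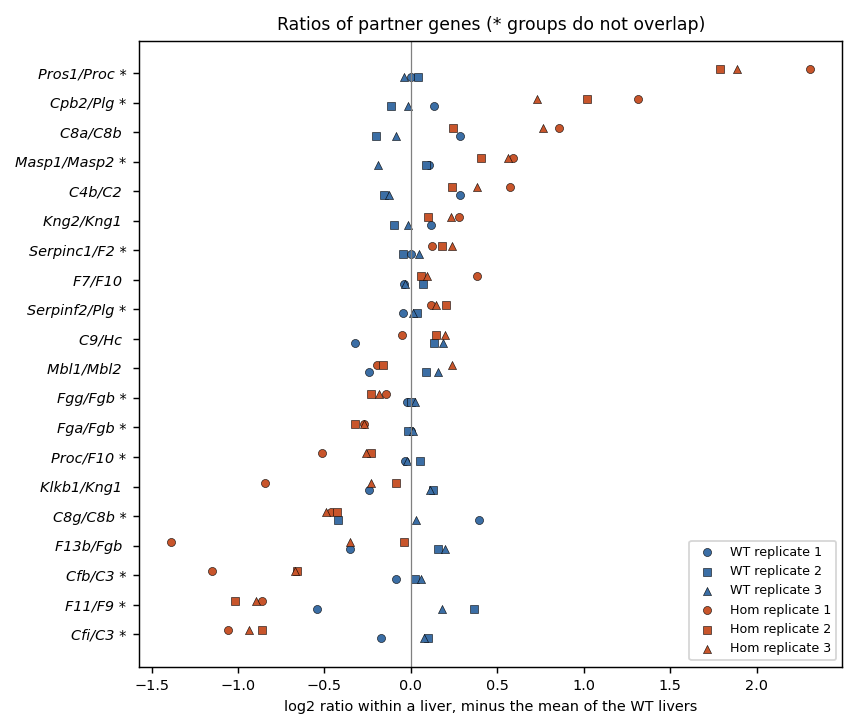
Log2 ratio of 2 partner genes within each liver, minus the mean of the WT livers (horizontal axis in log2 units, WT in blue and Hom in red, one symbol shape per replicate number), for 20 pairs, with a star where the groups do not overlap. By the mean of the Hom livers, Pros1 over Proc lies farthest right, 1.99 above the WT mean, and Cfi over C3 farthest left, at −0.95, while single livers of F13b over Fgb and Cfb over C3 lie farther left.

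Genes around the cascades were read from lists of the same pathways. Among all tested genes 20.1% fell and 21.5% rose with TMM factors. With library size alone 4.65% were lower and 47.6% higher, and on the hepatocyte marker scale 2.14% and 68.9%. Of 19 other plasma factors made by liver that were tested, 7 fell and 4 rose, with a median log2 fold change of −0.30. With library size alone 2 were lower and 7 higher, and on the hepatocyte marker scale 1 and 11. Among them Hgfac and C1rl fell, at −0.76 and −0.75, and clusterin (Clu), an inhibitor of the terminal complex, rose at 1.53. Of 6 genes of the vitamin K cycle, which gives clotting factors their calcium-binding residues, 4 fell and 1 rose. Vkorc1, the target of warfarin, fell by 0.66 (SE 0.0839, adjusted p of 0.00165 in edgeR's quasi-likelihood test) with TMM factors, and with library size alone none of the 6 passed as lower. Of 30 factors, receptors and regulators made by other cells, 5 fell and 9 rose, with a median of 0.34, and 2 were lower and 16 higher with library size alone. Plat, the gene of tissue plasminogen activator, went from 0.729 ± 0.149 CPM to 11.7 ± 2.03, and Colec10, a collectin that also feeds the lectin pathway, from 28.2 ± 7.37 to 1.04 ± 0.404. Of 11 hepatocyte transcription factors, 3 fell and 1 rose (none lower and 1 higher with library size alone), among them Hnf4a, which fell by 0.69, and Cebpb, which fell by 0.92. Without Hom replicate 1 the counts lower and higher were 6 and 3 for the plasma factors and 3 and 1 for the vitamin K cycle. They were 5 and 10 for the genes of other cells and 2 and 1 for the transcription factors.

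Several marker lists differed between the groups, where 20.1% of all tested genes fell and 21.5% rose. Of 34 hepatocyte markers 21 fell and 1 rose, with a median of −0.78, which is lower than that of the members. With library size alone 12 of them passed as lower and 2 as higher. Leaving out Hom replicate 1 gave 27 lower and 1 higher. Of 12 cholangiocyte markers 10 rose, with summed TPM of 67.0 to 117 in the WT group and 935 to 1419 in the Hom group. Of 14 stellate cell and fibroblast markers 8 rose and 2 fell, with sums of 200 to 299 TPM and 606 to 676. Of 13 macrophage markers 5 rose and 2 fell, with sums of 176 to 504 TPM and 539 to 753. Of 12 endothelial markers 5 fell and none rose, with sums of 132 to 225 TPM and 138 to 164, but 3 were lower and 2 higher with library size alone and 3 and 5 on the hepatocyte marker scale. Of 14 proliferation genes 12 rose. Leaving out Hom replicate 1 gave 7 stellate cell and fibroblast markers higher and 2 lower, and 5 macrophage markers higher and 1 lower. In that fit 13 proliferation genes were higher. None of 7 neutrophil markers passed, 1 of 6 lymphocyte markers rose, 1 of 5 megakaryocyte and platelet markers rose and 1 fell, and 1 of 5 red cell precursor genes fell. Of the platelet markers 0 were higher and 1 lower without Hom replicate 1, and 1 was higher and 0 lower with library size alone. In the fit without Hom replicate 1, 2 of 7 lymphocyte markers were higher. Of 16 acute phase genes outside the cascades 5 rose and 1 fell, and their sum was 27500, 10370 and 9142 TPM in WT livers and 83570, 43200 and 38330 in Hom livers. Replicate 1 was the highest of its group in that sum, as it was for C3 and Fgb. Without Hom replicate 1, 3 of the 16 acute phase genes were higher and 2 lower. Their median log2 fold change was 0.69 in that fit and 1.27 with all livers. The part of any of these in the members' differences was not tested.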

How the data were processed

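Total RNA from whole liver of 3 WT and 3 Hom mice was sequenced on the DNBSEQ platform. The submitters' processing notes name HISAT2 2.0.4, Bowtie2 2.2.5, RSEM 1.2.12 and the build mm9, and strandedness was not given in the sources used here. The authors deposited estimated counts (expected counts as RSEM gives them, not scaled between livers, 65.9% of them whole to within 1e-09), FPKM values and TPM values for 17975 genes. The authors' FPKM values are per gene length and library size, and the deposited TPM values sum to 1000000 in each liver. The deposited mean columns carry crossed group names (equal to the other group's mean within 0.01 for all 17975 genes) and were not used, and 0 columns of single livers were left unmapped.

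Estimated counts were rounded and tested in R 4.3.3 with edgeR 4.0.16 (filterByExpr, TMM factors, glmQLFit and glmQLFTest) over 13805 genes, with Benjamini-Hochberg adjustment and no minimum fold change. Standard errors and 95% intervals came from each fold change and its F statistic. The script was tested on simulated data with known changes. DESeq2 1.42.0, other scalings, other filters, a replicate block and leaving out each liver were alternatives. Gene lengths were those implied by counts and FPKM, and were used for ratios within a liver. The ratios were compared by exact two-sided permutation tests.

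The labels give single mice per liver and do not pair same-numbered livers, which were treated as unpaired. The correlations of their deviations from the group means were −0.11, −0.06 and −0.05. With 3 livers per group these cannot settle whether the livers share a batch. No 2 livers of the same group agreed within sampling noise. The members and lists were chosen with earlier results of these data known. Each member was accounted for, and values in every liver were given for the extreme members of each role group and for all that rose or did not pass. These were given as TMM-scaled CPM in place of the TPM first planned, because TPM shifted the median of all genes by 0.62 (log2). Other genes were named among the 3 with the smallest adjusted p of a list. Promoters came from RefSeq (GRCm38.p6) and gene positions and shared stretches of 50 bases from the GENCODE annotation on GRCm38, a different build from mm9. The Alb-Cre genotype was taken from the labels.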

Additional observations from a re-analysis of the deposited data

How the results depend on the processing

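The direction and number of calls depended on scaling more than on any other choice. Against 16 members lower and 2 higher, library size alone gave 4 and 8, the hepatocyte marker scale 1 and 19, DESeq2 19 and 4, and a minimum log2 fold change of 1 in size gave 2 and 1. Upper-quartile factors gave 12 and 3, beside 14.9% lower and 25.2% higher of all genes, DESeq2 called 20.7% and 22.3% of all genes, and other filters and a correction for gene length gave 14 lower and 2 or 3 higher, beside 14.4% to 20% and 16.1% to 21% of all genes. Leaving out 1 liver gave 7 to 18 lower and 1 to 2 higher, with the members' median between −0.43 and −0.29. The median was 0.13 with library size alone and 0.45 on the hepatocyte marker scale. The members lower in all leave-one-out fits were F10, Klkb1, Proc, Mbl1, Masp2, C8b and C8g (7), and the 1 higher was Pros1. Partner ratios without overlap numbered 12, against 11 from deposited TPM.

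A block for the replicate number, for which the labels give no pairing, gave 10 members lower and 2 higher (16% and 17.3% of all genes), and turned Fgg to −0.0508. F5, F11, F12, Serpinc1, Serpind1 and Plg missed the threshold under it.

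With library size alone these values turned positive: F7 0.0386, F12 0.13, Kng1 0.15, Kng2 0.35, Fga 0.34, F13b 0.0104, Serpinc1 0.0469, Serpinf2 0.0779, Masp1 0.19, C2 0.32, Hc 0.39, C8a 0.0017 and Cfi 0.38. On the hepatocyte marker scale these did: F2 0.19, F7 0.35, F10 0.18, F5 0.27, F12 0.45, Klkb1 0.11, Kng1 0.46, Kng2 0.65, Fga 0.64, F13b 0.34, Serpinc1 0.37, Serpind1 0.29, Plg 0.24, Serpinf2 0.40, Mbl1 0.24, Mbl2 0.26, Masp1 0.51, C2 0.65, Hc 0.71, C8a 0.32 and Cfi 0.69. With upper-quartile factors Kng2 (0.0085), Fga (0.0095), Hc (0.0276) and Cfi (0.0252) did. These turns follow from the scale itself, which shifts all genes. Leaving out 1 liver turned 9 members that had not passed: the ranges were Kng2 −0.32 to 0.0865, Fga −0.47 to 0.14, Fgb −0.17 to 0.41, Fgg −0.38 to 0.25, Cfb −0.0367 to 0.15, Hc −0.14 to 0.028, C6 −0.28 to 0.35, C9 −0.19 to 0.12 and Cfi −0.21 to 0.0102. Depth was near equal in all libraries.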
